A study of Macaca mulatta with 20 samples.

Results

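The receptors for the colony-stimulating factors were followed in whole blood of rhesus macaques before and after irradiation of the thorax. The group holds 4 genes, CSF1R, CSF2RA, CSF2RB and CSF3R, and the probes of these genes were taken from the array by gene name where they were well above background on at least 5 of the 20 arrays. All 5 probes that carry one of these names passed, 1 each for CSF1R, CSF2RA and CSF3R and 2 for CSF2RB. They are 5 of the 19961 probes that passed the same filter, out of 34127 probes on the array, and 4 of 15929 gene names among them. Blood for RNA was drawn from 8 animals, male macaques of Chinese origin and mixed ages. They got 10 Gy of x-rays to the midplane of the thorax and no mitigating drug, and the RNA was depleted of globin transcripts. Blood taken 3 days before irradiation (pre) and on day 2, day 5 and day 30 after it gave 5 arrays per group, so every group other than pre differs from it by both the irradiation and the time since. The animals served as their own controls, no sham-irradiated group was analysed here, and 1 sample was RNA pooled from a pair of animals, which the labels do not identify. Arrays with the same replicate number were treated as pairs, as in the study, although the labels do not name the animal behind a number. The labels also do not say how many of the 8 animals the 5 arrays of a group stand for.

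Colony-stimulating factors are secreted proteins that keep myeloid cells alive and drive their growth and maturation. CSF1R is a receptor tyrosine kinase for CSF1 and IL34 and is the defining receptor of monocytes and macrophages. CSF2RA binds CSF2 (GM-CSF) and signals together with CSF2RB, the common beta chain that is also used by the receptors for IL3 and IL5, whereas CSF3R is the receptor for CSF3 (G-CSF) and is found mainly on neutrophils and their precursors. Receptors without a kinase of their own pass the signal to JAK kinases and STAT factors, and recombinant CSF2 and CSF3 are given to raise neutrophil numbers after irradiation.

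The values below rest on single 60-base probes designed on human transcripts, so the sequences that captured the macaque RNA are shown. They are given 5′ to 3′ as in the array files, with the first 30 bases for CSF1R, CSF3R and the brighter CSF2RB probe and all 60 bases for the others, and no base is capitalised because no single base matters here.
CSF1R: atcctaactaacagtcacgccgtgggatgt
CSF3R: tccatccagccccacccaatggccttttgt
CSF2RB, brighter probe: cctgaccttcctcagtcatttctgcaaagc
CSF2RB, dimmer probe: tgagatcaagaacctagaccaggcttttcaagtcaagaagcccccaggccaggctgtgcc
CSF2RA: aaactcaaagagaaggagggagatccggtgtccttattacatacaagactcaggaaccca

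On the human assembly hg19, to which the array files refer, the CSF1R probe lies at chr5:149432861-149432920 on the minus strand and the CSF3R probe at chr1:36931696-36931755 on the minus strand. The CSF2RB probes lie on the plus strand of chromosome 22, the brighter at chr22:37334598-37334657 and the dimmer at chr22:37334388-37334447, with 150 bases between them. The CSF2RA probe spans 1508 bases at chrX:1407773-1409280 on the plus strand, more than its own 60 bases, so its target is split by at least 1 intron, and the gene lies in the pseudoautosomal region. Exon and UTR annotation was not used here, and how well each probe matches the macaque transcript was not tested, so levels of different probes are not compared.

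A level below is the log2 of the processed fluorescence signal minus the 75th percentile of the same array, so that 0 is the signal of a fairly bright spot and a difference of 1 is a factor of 2.00 in signal. On the linear scale CSF3R gave signals from 28908.8 to 155497 (median 68794.4), CSF1R from 4206.7 to 17245.2 (median 10689.1), the brighter CSF2RB probe from 70.9 to 370, CSF2RA from 38.6 to 289 and the dimmer CSF2RB probe from 8.41 to 31.7. None of these spots was saturated or marked as an outlier. The first 4 probes were well above background on all 20 arrays, while the dimmer CSF2RB probe was so on 14 (2 of 5 before irradiation and 4 of 5 on each later day). Across the arrays 50.9% to 67.3% of spots were well above background. The highest share was that of day 5 replicate 3, and the next, on day 30 replicate 2, was 58.8%. Day 5 replicate 3 also had the lowest 75th percentile (7.45, log2), the value used for scaling. The number of arrays per group, 5, sets the precision of every comparison.

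The 4 probes that were well above background on every array had a higher mean level on each of the 3 days than before irradiation, as did 44.9% of all probes on day 2, 54.7% on day 5 and 47.4% on day 30. The dimmer CSF2RB probe also read higher, from values near background. No receptor probe passed the cut-offs of the study (p under 0.005 and a false discovery rate under 10%), applied here to a limma fit paired by replicate number in place of the study's own class comparison tool, on any day. Of all 19961 probes, 0.0601% passed on day 2, 0% on day 5 and 0% on day 30, so the threshold was rarely reached by any gene in this fit. With its own tool the study reported far more genes on each day at these cut-offs. Other ways of fitting the data called from 0 to 588 probes on day 2. Words such as higher therefore describe measured differences here and not calls. The comparisons with pre share the 5 pre arrays.

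CSF3R, the G-CSF receptor, had the largest difference of the 5 probes on day 2 in the reported fit, though not with another background correction (normexp), in which the dimmer CSF2RB probe was at 0.48 and CSF3R at 0.45. Before irradiation its levels were 7.99, 7.42, 7.87, 6.69 and 8.05 in replicates 1 to 5. On day 2 they were 9.16, 7.79, 9.25, 8.07 and 8.73. On day 5 they were 8.96, 7.84, 8.14, 7.29 and 8.88, and on day 30 they were 8.81, 8.10, 7.62, 7.99 and 8.90. Each replicate was higher on day 2 and on day 5 than before, 4 of 5 were higher on day 30 with replicate 3 as the exception. The groups overlapped on every day, since replicate 2 on day 2, replicates 2 and 4 on day 5 and replicates 3 and 4 on day 30 lay below the highest pre array, and the pre array of replicate 4 was the lowest of the 20. The mean was 7.60 ± 0.57 before irradiation (SD, n = 5), 8.60 ± 0.65 on day 2, 8.22 ± 0.71 on day 5 and 8.28 ± 0.55 on day 30.

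On day 2 CSF3R was 2.00-fold its earlier signal (log2 difference 0.997 ± 0.20, SE; 95% interval of the fold 1.46 to 2.73), with an adjusted p of 0.148 in limma. On day 5 the difference was 0.62 ± 0.16 (adjusted p = 0.319) and on day 30 it was 0.68 ± 0.23 (adjusted p = 0.205). The first of these passed the threshold in 5 of the other ways of fitting the data, for example with all 20 arrays in 1 model (adjusted p = 0.0656) and without the pair of replicate 2 (1.15, adjusted p = 0.0676). Normexp corrects the raw signals for background in another way, and each array was then scaled anew. With it the adjusted p of the day 2 difference was 0.362 in limma. On day 5 the log2 difference of CSF3R was 0.40 with quantile normalization.

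**Figure D1:**
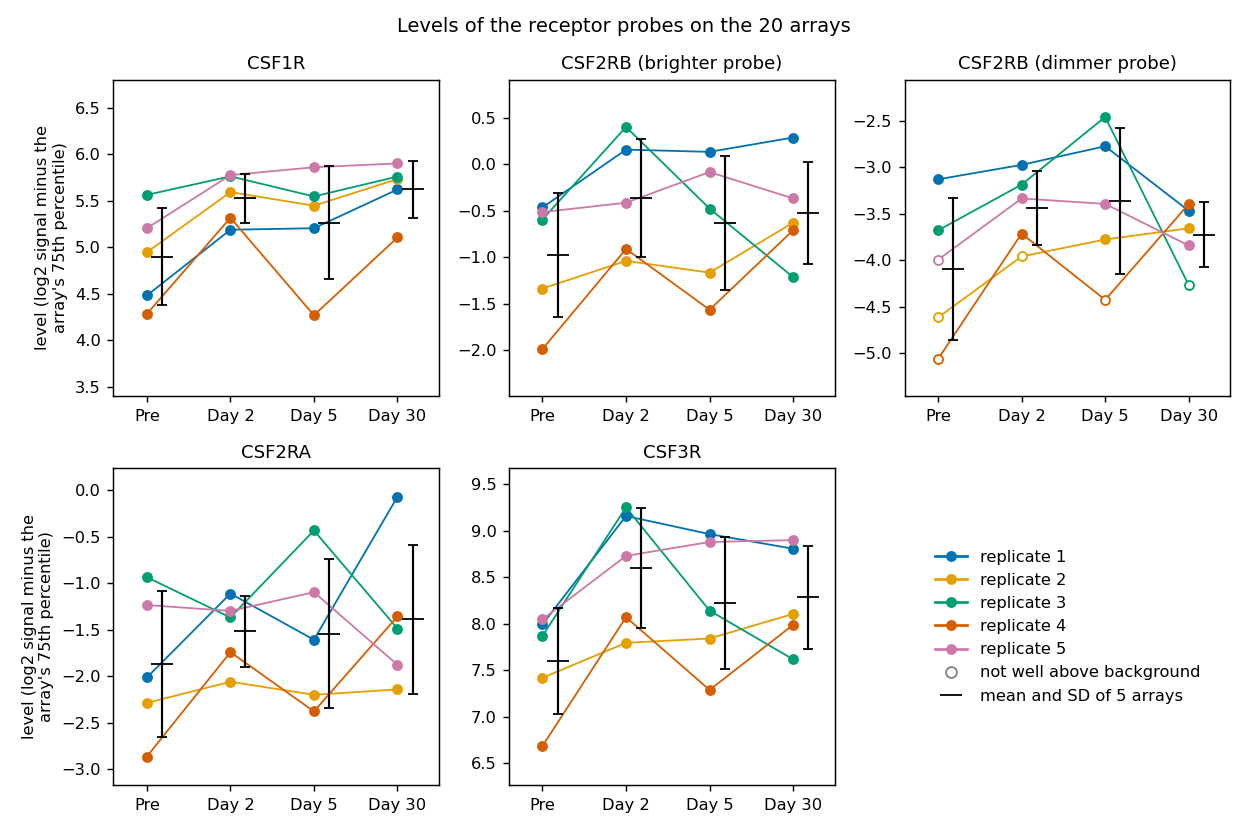
Level of each receptor probe (log2 processed signal minus the 75th percentile of the array) before irradiation and on days 2, 5 and 30, with 1 colour and line per replicate number, open points for spots not well above background, and black bars for the mean and SD of 5 arrays; every panel spans the same number of log2 units. Replicate 4 is at or near the bottom before irradiation in all panels, and the mean before irradiation is the lowest of the 4 groups for each probe.

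CSF1R, the receptor that monocytes need for CSF1, was higher in every replicate pair on day 2 and on day 30, but in only 3 of 5 pairs on day 5. Before irradiation its levels were 4.48, 4.95, 5.56, 4.28 and 5.20 in replicates 1 to 5. On day 2 they were 5.19, 5.59, 5.76, 5.32 and 5.78. On day 5 they were 5.20, 5.45, 5.55, 4.27 and 5.86, and on day 30 they were 5.62, 5.73, 5.76, 5.10 and 5.90. Replicate 3 started highest and moved least, replicate 4 on day 5 was back at its level before irradiation, and the day 2 and day 30 arrays lay closer together (SD 0.26 and 0.31) than those taken before (SD 0.52). The groups overlapped on each day.

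The CSF1R difference was 0.63 ± 0.16 on day 2 (1.55-fold, adjusted p = 0.196 in limma), 0.37 ± 0.17 on day 5 (1.29-fold, adjusted p = 0.479) and 0.73 ± 0.19 on day 30 (1.66-fold, adjusted p = 0.152). The day 30 difference passed the threshold in 4 of the other fits, with adjusted p-values between 0.0819 and 0.0933. The day 2 difference depended on the background correction, since with normexp it was 0.10 with an adjusted p of 0.829, no more than the median of all probes in that fit, 0.12, and the day 30 difference was then 0.58. This probe is printed 10 times on each array, and the 10 spots of an array had an SD between 0.03 and 0.07 on the log2 scale, much smaller than the SD of 0.52 among the pre arrays. The spread among CSF1R values therefore lay between arrays and not between spots.

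**Figure D2:**
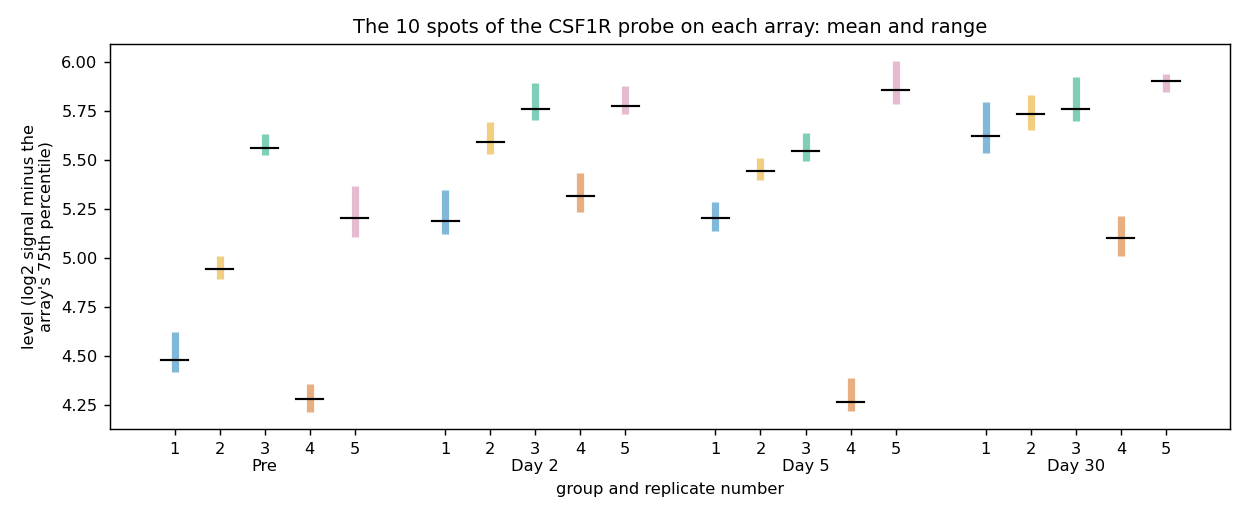
CSF1R level (log2 processed signal minus the 75th percentile of the array) on each of the 20 arrays, with the black line at the mean of the 10 spots and the coloured bar from the lowest to the highest spot; colours and numbers mark the replicate. The bars span 0.09 to 0.26 log2 units, less than the distances between most arrays of a group.

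CSF2RB, the chain shared by the receptors for GM-CSF, IL3 and IL5, was measured by a pair of probes whose differences lay close together on days 2 and 30 and further apart on day 5. The brighter probe had levels of -0.47, -1.34, -0.60, -1.99 and -0.52 before irradiation in replicates 1 to 5. On day 2 it had 0.16, -1.04, 0.40, -0.91 and -0.41, and on day 5 it had 0.13, -1.17, -0.48, -1.56 and -0.09. On day 30 it had 0.29, -0.63, -1.21, -0.71 and -0.37. It was higher in 5 of 5 pairs on days 2 and 5 and in 4 of 5 on day 30, when replicate 3 was lower by 0.62 than before irradiation, and replicates 2 and 4 were the low ones in most groups. The dimmer probe had levels of -3.13, -4.62, -3.68, -5.06 and -4.00 before irradiation and -2.98, -3.96, -3.19, -3.71 and -3.34 on day 2. On day 5 it had -2.78, -3.78, -2.46, -4.43 and -3.40, and on day 30 it had -3.47, -3.66, -4.27, -3.40 and -3.84. The groups of both probes overlapped on every day.

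For the brighter probe the difference was 0.62 ± 0.19 on day 2 (1.53-fold, adjusted p = 0.234), 0.35 ± 0.15 on day 5 (1.27-fold, adjusted p = 0.436) and 0.45 ± 0.27 on day 30 (1.37-fold, adjusted p = 0.415) in limma. For the dimmer probe it was 0.66 ± 0.19 on day 2 (adjusted p = 0.220), 0.73 ± 0.17 on day 5 (adjusted p = 0.289) and 0.37 ± 0.33 on day 30 (adjusted p = 0.585). Both probes were higher in all pairs on days 2 and 5, and the dimmer in 3 of 5 on day 30. On day 5 the estimate of the dimmer probe was the larger, though with normexp it was 0.19, and the gap between the probes was not tested. The dimmer probe was well above background on only 2 of the 5 pre arrays (not on those of replicates 2, 4 and 5), so its differences rest on values close to background and are given with no fold. Over the 20 arrays the levels of both probes had a Pearson correlation of 0.80.

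CSF2RA, the chain that binds GM-CSF, had the widest range of levels of the 5 probes, 2.79 log2 units over the 20 arrays. Before irradiation its levels were -2.01, -2.29, -0.94, -2.86 and -1.24 in replicates 1 to 5. On day 2 they were -1.11, -2.06, -1.37, -1.74 and -1.30, and on day 5 they were -1.61, -2.20, -0.43, -2.38 and -1.10. On day 30 they were -0.07, -2.14, -1.49, -1.36 and -1.88. Replicates 3 and 5 were lower on days 2 and 30 than before irradiation while replicates 1, 2 and 4 were higher, and all 5 pairs were higher on day 5 alone.

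The CSF2RA difference was 0.35 ± 0.25 on day 2 (95% interval -0.22 to 0.92, adjusted p = 0.524), 0.32 ± 0.14 on day 5 (-0.01 to 0.66, adjusted p = 0.459) and 0.48 ± 0.40 on day 30 (-0.43 to 1.38, adjusted p = 0.557) in limma. These intervals hold 0 as well as differences of the size measured for CSF1R, so the data do not settle whether CSF2RA changed. Leaving out 1 replicate pair gave values from 0.16 to 0.55 on day 2 and from 0.11 to 0.76 on day 30.

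Set side by side over the 4 probes that were well above background on all 20 arrays, 52 of the 60 differences of a probe, a day and a replicate pair were above 0, namely 13 of 15 for CSF1R, 14 of 15 for the brighter CSF2RB probe, 11 of 15 for CSF2RA and 14 of 15 for CSF3R. The dimmer CSF2RB probe passed the filter mainly through the later days and is left out of these counts. The median difference of the 4 probes was 0.62 on day 2, 0.36 on day 5 and 0.58 on day 30, whereas the median of all probes tested was -0.04, 0.03 and -0.02. On day 2, 3 of the 4 probes had an unadjusted p under 0.05 with a higher level, compared with 8.47% of all probes. On day 5 there were 2, compared with 7.35%, and on day 30 there were 2, compared with 7.43%. Higher in all of their replicate pairs were 3 probes on day 2, 3 on day 5 and 1 on day 30, compared with 6.17%, 7.24% and 7.41% of all probes. The groups did not overlap for 0 of the 4 probes on any day, compared with 1.62%, 0.641% and 2.04% of all probes. At an unadjusted p under 0.005 there was CSF3R on day 2, no probe on day 5 and CSF1R on day 30, when 1.9%, 1.26% and 1.13% of all probes were higher at that level. The probes share arrays, so they are not 4 independent observations.

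The replicates differed in how all receptors moved. The pre array of replicate 4 was the lowest of the 20 arrays for 4 of the 5 probes, and the differences of that replicate on day 2 ran from 1.03 to 1.38 over the 5 probes. Replicate 2 was higher in all 15 of its differences. Replicate 3 was higher in 9 of 15, and on day 30 only CSF1R was higher in it, by 0.20, while the other 4 probes were lower by 0.25 to 0.62.

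**Figure D3:**
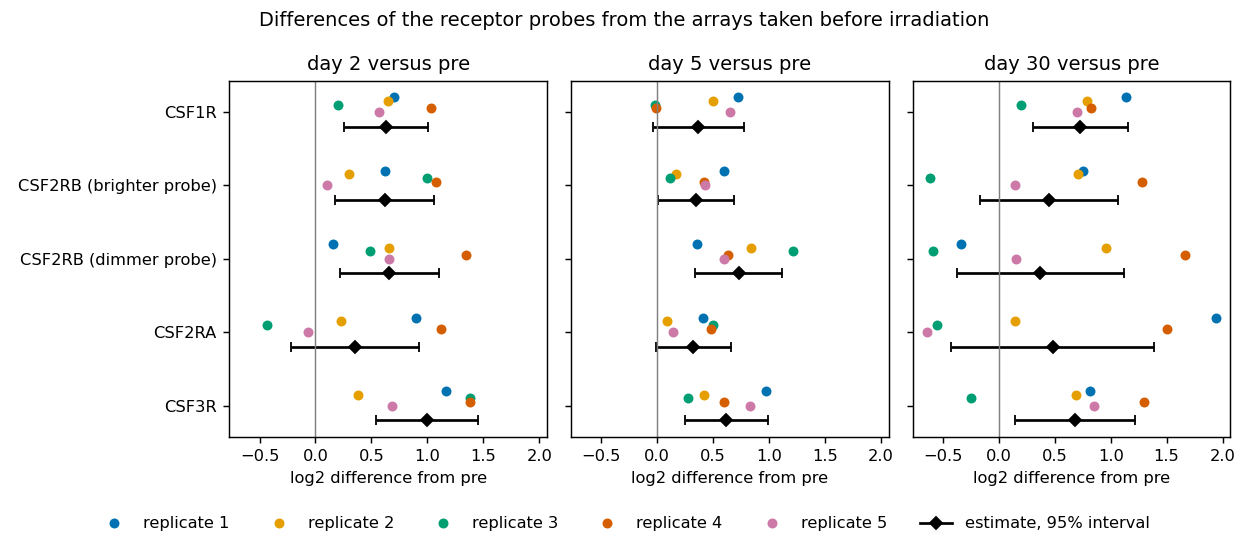
Log2 difference from the array of the same replicate number taken before irradiation, for each receptor probe on day 2, day 5 and day 30; coloured points are replicate pairs and black diamonds with bars are the estimate and its 95% interval. All 15 estimates lie above 0, and points left of 0 are mostly those of replicate 3 on day 30 and of CSF2RA.

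No probe differed between the later days beyond the spread. CSF1R on day 30 was higher than on day 5 in all 5 pairs, by 0.36 (95% interval -0.07 to 0.78, adjusted p = 0.608), and CSF3R was lower on day 5 than on day 2 by 0.38 (interval -0.91 to 0.15, adjusted p = 0.972) in limma. All 15 between-day differences had intervals that held 0, and none had an unadjusted p under 0.05, compared with 3.56%, 12.8% and 8.48% of all probes for day 5 against day 2, day 30 against day 2 and day 30 against day 5. Of all probes, 0% were called between days 5 and 2, 0.0501% between days 30 and 2 and 0% between days 30 and 5. The order of the later days for any receptor is therefore not resolved.

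The 20 arrays lay on 5 slides of 4, each with 1 array of every group at a fixed place on the slide, so that group and place cannot be told apart. Replicate numbers were spread over the slides, and differences within a slide mostly compare arrays of different numbers. Within slides the later array was higher in 18 of 25 differences on day 2, 17 of 25 on day 5 and 18 of 25 on day 30. These counts include the dimmer CSF2RB probe (3, 4 and 3 of 5). The 5 probes share the slides, so these are not 25 independent observations, and the counts were not compared with all probes. CSF1R was higher within all 5 slides on days 2 and 30, and CSF3R within 4 of 5 on each day. With the slide as a block in place of the replicate number, CSF3R on day 2 had an adjusted p of 0.380, CSF1R on day 2 one of 0.317 and CSF1R on day 30 one of 0.455 (limma).

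Of the ligands, only CSF1 could be measured. Its level was 0.05 lower on day 2 (adjusted p = 0.906), 0.04 lower on day 5 (adjusted p = 0.943) and 0.25 lower on day 30 (adjusted p = 0.480) in limma. CSF2, IL34 and 1 of the CSF3 probes were well above background on none of the 20 arrays, and the other CSF3 probe was on 1. A probe below background gives no level, and these arrays do not measure the proteins in plasma.

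Of 8 partner chains and related receptors, 6 were tested and none was called on any day. IL3RA, which pairs with CSF2RB to bind IL3, was above background on no array. IL5RA, which pairs with CSF2RB on eosinophils, was well above background on 7 arrays and differed by -0.80, -0.52 and -1.58 on days 2, 5 and 30 (day 30, adjusted p = 0.195). EPOR, the erythropoietin receptor, differed by 0.72 on day 2 (adjusted p = 0.166) in 5 of 5 pairs and by 0.00 on day 30. The median of the 6 was 0.11, -0.13 and 0.09.

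Downstream of the receptors, none of the 18 tested genes of proximal signalling was called, and 14, 11 and 14 of them had a difference above 0 on days 2, 5 and 30, with medians of 0.25, 0.02 and 0.19. TYROBP, the adaptor DAP12 that works with macrophage receptors, differed by 0.67 on day 2 (adjusted p = 0.195), in 5 of 5 pairs. Of the 12 inhibitors of signalling none was called and none had a p under 0.005. Their differences on day 2 ran from -0.64 for CBLB (adjusted p = 0.225, higher in 0 of 5 pairs) to 1.002 for SOCS3 (adjusted p = 0.204). SOCS3 blocks JAK signalling from the G-CSF receptor. Of 10 targets of STAT factors, none was called, and BCL6, a transcriptional repressor, differed by 1.04 on day 30 (adjusted p = 0.155) in 5 of 5 pairs. The list medians on day 2 were 0.30 for inhibitors and 0.24 for STAT targets, beside -0.04 for all probes, and on day 30 they were 0.09 and -0.01.

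Of 12 transcription factors of myeloid cells none was called, and 10, 7 and 10 were above 0 with medians of 0.51, 0.33 and 0.35. CEBPA and CEBPB, which drive the genes of granulocytes and of the emergency response, differed by 0.78 and 0.80 on day 2 (adjusted p = 0.170 and 0.166), in 5 of 5 pairs each. GFI1, a repressor needed for neutrophil maturation that is also expressed in lymphocytes, was lower in all 5 pairs on day 2, with a difference of -1.17 (adjusted p = 0.151).

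The receptors mark particular leukocytes, and in bulk blood a change in the share of a cell type cannot be told apart from a change in RNA per cell. The markers of those cells were therefore set beside them. Neutrophil markers had a median difference of 0.96 on day 2, 0.62 on day 5 and 0.78 on day 30, with 13, 14 and 14 of 14 tested genes above 0 and none called. Their summed signal, relative to the 75th percentile of the array, ran from 36.2 to 79.1 before irradiation, from 51.7 to 188 on day 2, from 48.6 to 106 on day 5 and from 43.8 to 236 on day 30. CXCR2, the neutrophil receptor for CXCL8, differed by 1.06, 0.64 and 1.11 (day 30, adjusted p = 0.141), and AQP9, a neutrophil water channel, by 1.39, 0.95 and 1.34. TNFRSF10C, a decoy receptor of neutrophils, differed by 1.24 on day 2 (adjusted p = 0.184), and MMP25 and S100A12, a protease and a calcium-binding protein of neutrophils, by 0.64 and 1.57 on day 5 (adjusted p = 0.296 and 0.309).

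Markers of neutrophil precursors, 9 tested of 12, had medians of 0.94, 0.85 and 0.95, and on day 5 the granule proteins CTSG, CEACAM8, LCN2 and CAMP differed by 0.77, 0.96, 1.36 and 0.71 (adjusted p from 0.279 to 0.289). MPO differed by 0.69, 0.49 and 0.95, and ELANE was well above background on 2 arrays alone. Monocyte and macrophage markers, 11 tested of 15, had medians of 0.51, 0.36 and 0.35, with 9, 8 and 11 above 0. Their summed signal ran from 74.3 to 207 before irradiation, from 125 to 274 on day 2, from 72.8 to 223 on day 5 and from 137 to 291 on day 30. CD14 differed by 0.58, 0.43 and 0.47, and CD163, a scavenger receptor of macrophages, by 0.83, 0.41 and 0.97 (day 30, adjusted p = 0.148). CD300E and LILRB4 differed by 0.69 and 0.72 on day 5 (adjusted p = 0.307 and 0.279).

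Lymphocyte markers ran the other way. All 13 T and NK cell markers were below 0 on day 2, with a median of -0.65, and KLRB1, a receptor of NK cells and of some T cells, was the 1 gene of all lists that was called against pre. It fell by 1.67 on day 2 (adjusted p = 0.0965 in limma). CD2, NKG7, GZMK and PRF1, a surface molecule and granule proteins of these cells, differed by -0.65, -1.32, -0.99 and -1.42 on day 2 (adjusted p from 0.131 to 0.195), and on day 30 GZMK was at 0.93 and CD7 at -0.80 (adjusted p = 0.126 and 0.141). The T and NK median was -0.32 on both later days, and CD3E differed by -0.20, -0.13 and -0.64. B cell markers had medians of -0.50, -0.49 and -0.49 over 6 tested genes, with FCRLA at -0.87 on day 5 (adjusted p = 0.279), and MS4A1 was well above background on 2 arrays alone. Platelet markers had medians of 1.47, 0.46 and -0.37, with PF4 at 1.47, 0.61 and -0.13, and all 7 had an unadjusted p under 0.005 on day 2. Erythroid markers had medians of -0.19, 0.02 and -0.90. Dendritic cell markers, 6 tested of 8, had medians of 0.30, 0.27 and 0.02, with 4, 5 and 3 above 0. Eosinophil and basophil markers, 7 tested of 10, had medians of 0.04, -0.17 and -0.35, with 4, 1 and 1 above 0. The part of these cell types in the receptor values was not tested.

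Pair by pair, the differences of CSF3R and CSF1R were set beside the medians of the neutrophil and the monocyte list. CSF3R exceeded the median of the neutrophil list in 4 of 5 pairs on day 2, 3 on day 5 and 3 on day 30, with a median excess of 0.12, 0.07 and 0.07, but single pairs lay between -1.22 and 0.63. CSF1R exceeded the median of the monocyte list in 5, 2 and 4 of 5 pairs, by a median of 0.17, -0.02 and 0.23, with single pairs between -0.09 and 0.96. The brighter CSF2RB probe lay below the neutrophil list in all 5 pairs on day 5, by a median of 0.23. With the lists exchanged, CSF3R exceeded the monocyte median in 4, 5 and 4 of 5 pairs, by a median of 0.63, 0.26 and 0.13. CSF1R exceeded the neutrophil median in 2, 2 and 3 of 5 pairs, by a median of -0.26, -0.13 and 0.24. These are descriptions of 5 pairs each, and whether a receptor follows either list more closely was not tested.

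**Figure D4:**
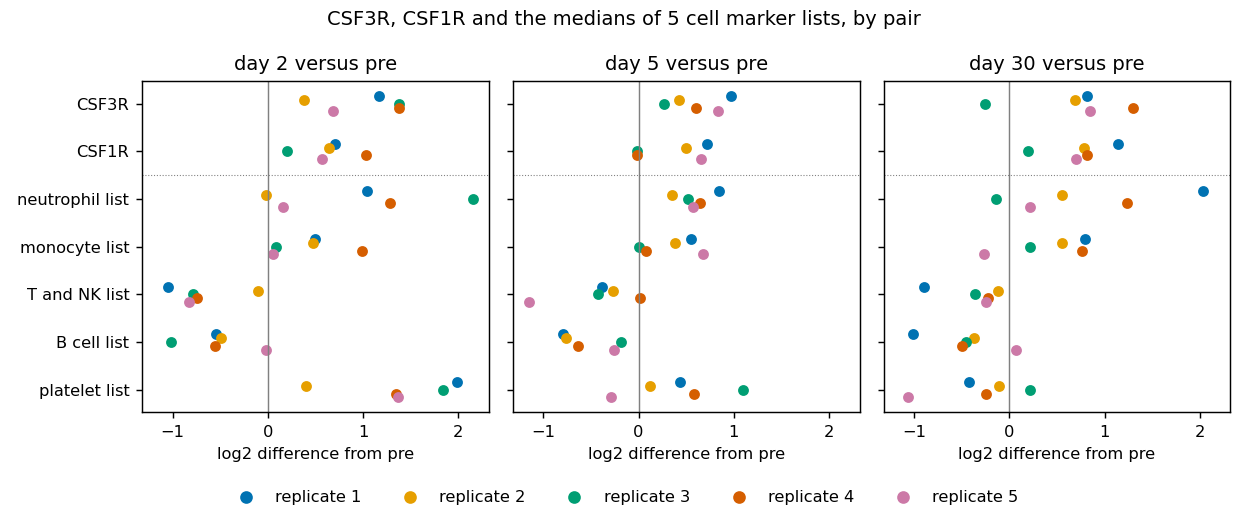
Log2 difference from the array of the same replicate number taken before irradiation, for CSF3R and CSF1R (above the dotted line) and for the median gene of 5 lists of cell markers (below it), on day 2, day 5 and day 30; each point is 1 replicate pair. CSF3R, CSF1R and the neutrophil and monocyte lists lie mostly right of 0, the lymphocyte lists mostly left of it, and the platelet list moves from right of 0 on day 2 to mostly left of it on day 30.

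Over the 20 arrays, each receptor was also compared with all 15322 probes that were well above background on every array, by Pearson correlation of levels. The arrays share animals and slides, so the values describe likeness and carry no test. CSF3R was most like AMICA1 (0.97), a leukocyte adhesion molecule, SLC16A3 (0.96), a lactate transporter, and OXER1 (0.96), a receptor for an eicosanoid, and CSF2RB was the fourth (0.95). The brighter CSF2RB probe was most like ACADVL (0.97), NCF1 (0.97), a subunit of the phagocyte oxidase, and SBNO2 (0.96). CSF1R was most like FAM129B (0.92), TNFRSF21 (0.92) and the macrophage receptor CD163 (0.90), and CSF2RA was most like DUSP11 (0.89) and CCNG2 (0.88).

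Among the receptors themselves, CSF3R and the brighter CSF2RB probe had a correlation of 0.95, and 0.92 without the 4 arrays of replicate 4, which were left out after their values had been seen. CSF1R was at 0.61 with CSF3R and 0.53 with the brighter CSF2RB probe and with CSF2RA, and these values were 0.30, 0.12 and 0.27 without replicate 4. CSF2RA was at 0.59 with CSF3R, and at 0.40 without replicate 4. CSF2RA was at 0.71 with the brighter CSF2RB probe, its signalling partner, and 0.57 without replicate 4. Without replicate 4 the correlations of CSF1R with the others fell by more than that between CSF3R and the brighter CSF2RB probe. No other replicate was left out for these correlations.

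**Figure D5:**
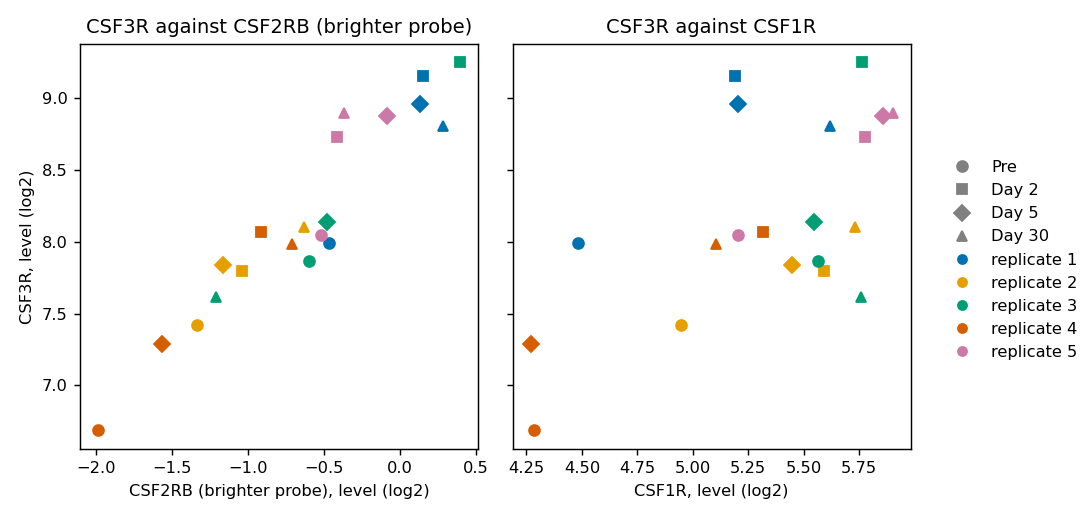
Level of CSF3R (log2 processed signal minus the 75th percentile of the array) against that of the brighter CSF2RB probe (left) and of CSF1R (right) on the 20 arrays; shapes mark the group and colours the replicate number. The points on the left lie near a line (Pearson correlation 0.95), and those on the right are scattered (0.61) with the pre and day 5 arrays of replicate 4 at the lower left.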

How the data were processed

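The authors hybridised Cy3-labelled, globin-depleted whole blood RNA to Agilent Whole Human Genome 4X44K v2 arrays and deposited the scanner output of each array, whose headers name Feature Extraction 12.0.2.2 (the submitters' processing notes name 10.7), and a table of log2 values. The deposited intensity values used here are the processed signals, background-subtracted by the authors' software and not scaled between arrays. The deposited log2 table holds 5885 items, among them CSF3R, CSF2RA and the brighter CSF2RB probe, and served as an alternative. Its scale is log2 and its values are the signals shifted by 1 constant per array for 96.9% to 97.2% of values (tolerance 0.001).

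Control spots and spots marked as outliers were left out, log2 signals were averaged over the spots of a probe, and each array was centred on the 75th percentile of its spots other than controls. Probes well above background on at least 5 arrays were fitted with limma 3.58.1 in R 4.3.3, separately for each comparison and blocked on replicate number, and called at p under 0.005 and a Benjamini-Hochberg FDR under 10%. The pairing comes from the study, which compared animals with themselves. Deviations of same-numbered arrays from their group means had correlations from -0.16 to 0.65 (median 0.28), over 0.1 in 25 of 30 pairs of arrays. The same-numbered array was the best match in 21 of the 30. For day 30 against pre it was not for replicates 1, 4 and 5, with correlations of 0.18, 0.07 and 0.04. List genes were represented by their brightest tested probe, and were named where called, where p was under 0.005 on a day against pre, or where they define a cell type or bind a receptor. SOCS3 and CBLB are named outside that rule, as the highest and the lowest inhibitor on day 2. The values of 1 gene that the rule would name are not reported here. The members and the gene lists were chosen with earlier results of these data known. Alternatives were another scaling, background correction, filter, spread model, test, threshold, block or set of arrays, and each replicate left out in turn. Figures were drawn with matplotlib 3.10.9.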

Additional observations from a re-analysis of the deposited data

How the results depend on the processing

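Every day-against-pre difference of the 5 receptor probes kept its sign in all 276 values recomputed under the alternatives, 10 of which passed the threshold where the reported fit did not. The number of receptor probes called on day 2 was 0 as reported and 1 with the filter for probes well above background on all 20 arrays, with the deposited log2 values, with an intensity trend and robust prior, and with p under 0.005 alone, and 2 with the 20 arrays fitted jointly. It was 0 to 1 when a replicate was left out (1 without replicate 2). On day 5 it was 1 with p under 0.005 alone. On day 30 it was 1 with normexp, with the filter on all 20 arrays, with the 20 arrays fitted jointly, with the trend and robust prior and with p under 0.005 alone. Without the replicate block 0 receptor probes were called, CSF3R on day 2 had an adjusted p of 0.424, and 0 of all probes were called on day 2 in place of 12; a block other than the reported one changed no other call of a receptor. Over all probes, 510 were called on day 2 with p under 0.005 alone. With the false discovery rate kept, the calls ranged from 0 (for example with quantile normalization, normexp or no filter) to 343 (20 arrays fitted jointly) with every array, and to 588 without replicate 2.

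Differences on day 5 were smaller by over 1.5 times with median scaling for CSF1R (0.23), the brighter CSF2RB probe (0.21) and CSF2RA (0.19), where the median of all probes was -0.11. With normexp the medians of all probes were 0.12 on day 2 and 0.11 on day 30, and the brighter CSF2RB probe was at 0.36 on day 2 and CSF2RA at 0.14 on day 5 and 0.28 on day 30. The cause was not tested. Without 1 replicate the day 30 difference ranged from 0.05 to 0.61 for the dimmer and from 0.25 to 0.72 for the brighter CSF2RB probe. Differences between later days, none of them called, changed sign in 22 of 276 values. For day 5 against day 2 the dimmer CSF2RB probe was at -0.10 with quantile normalization, -0.10 with median scaling and -0.30 with normexp, where CSF1R was at 0.27 and CSF3R at 0.16. With normexp CSF2RA was at -0.015 and CSF3R at 0.057 for day 30 against day 2, and the dimmer CSF2RB probe at 0.10 and CSF3R at -0.11 for day 30 against day 5. Leaving out 1 replicate gave, for day 5 against day 2, -0.27 to 0.12 for CSF2RA and -0.10 to 0.26 for the dimmer CSF2RB probe, for day 30 against day 2, -0.10 to 0.31 for CSF2RA, -0.31 to 0.20 for the brighter CSF2RB probe and -0.47 to 0.011 for CSF3R, and for day 30 against day 5, -0.19 to 0.46 for CSF2RA, -0.083 to 0.32 for the brighter and -0.71 to 0.0024 for the dimmer CSF2RB probe, and -0.10 to 0.21 for CSF3R. The signal over background limits the dimmer CSF2RB probe. For the others both the 5 arrays per group and the use of normexp, with its new scaling, bear on the differences.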
